A study of Mus musculus with 25 samples.

Results

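Solute carriers are membrane proteins that move sugars, amino acids, lipids, vitamins, metals and ions across the plasma membrane or across the membranes of vesicles and organelles. In an enterocyte, the absorptive cell of the small intestine, one set sits in the brush border and takes nutrients up from the lumen, and another set in the basolateral membrane passes them on toward the blood. Leukocytes express carriers of their own, among them amino acid transporters of proliferating cells and lysosomal carriers of phagocytes.

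The genes described here are those whose symbol begins with Slc and a digit, without the mitochondrial Slc25 family and without Slc34a2 and Slc12a2, and with a count of 3 UMIs or more in 3 or more libraries. Of 277 such genes among the 24089 of the table, 144 met that limit, beside 9956 genes of any kind. The other 133 fell under it, with a median of 3 UMIs in all, and 8 of them had 0. At the limit, 30 genes had exactly 3 libraries with 3 UMIs or more (11 to 43 UMIs in all), and 29 genes had 2 such libraries (6 to 50 UMIs) and were left out. Slc10a2, the ileal bile acid uptake carrier, and Slc40a1, the iron exporter, had 1 and 2 UMIs in all. Of the 144, 139 are carriers or carrier subunits, sorted by substrate into 9 classes, and 5 are only named after a carrier (Slc9a3r1, Slc9a3r2, Slc4a1ap, Slc7a6os and Slc2a4rg-ps). Where the 144 are counted together, they are called carriers.

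RNA was cut by laser capture microdissection (LCM) from frozen jejunum of 2 untreated C57BL/6 males at 3 months of age, and sequenced with unique molecular identifiers (UMIs), which count molecules, so that values are not divided by gene length. The 5 segments were the bottom of a villus beside the follicle (VB), the bottom and the top of the follicle-associated epithelium (FAEB and FAET), and the bottom and the top of the isolated lymphoid follicle below it (ILFB and ILFT). Each had 5 repeats, 1 and 2 from mouse 1 and 3 to 5 from mouse 2, each pooled from several follicles. Values per library follow in the order of repeats 1 to 5, as UMIs of the gene per 10000 UMIs of the library, and all p-values rest on dissections of 2 animals and are therefore too small as statements about mice. In such bulk samples, fewer cells of a type and less RNA per cell cannot be told apart.

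Libraries held 21529 to 213736 UMIs, with the lowest median in FAET (48759). In 6 of the 25, the markers went against the label. The 13 other epithelial libraries had 33.4 to 112 UMIs of 20 pan-epithelial genes and 0.464 to 6.97 of 20 pan-leukocyte genes per 10000, and the 6 other ILF libraries had 1.68 to 16.5 and 26.3 to 71.3. Repeat 5 of VB had 4.07 pan-epithelial against 67.9 pan-leukocyte UMIs, and repeat 1 of FAET had 17.8 against 41.5. Those labelled ILFB of repeat 5 and ILFT of repeats 1, 3 and 4 had 66.1 to 123 pan-epithelial and 2.85 to 27.4 pan-leukocyte UMIs. Each comparison was therefore also made on the remaining 19 libraries. They were picked by epithelial and leukocyte markers, so genes that go with those markers differ more between epithelium and ILF by that choice alone.

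Promoters of 4 members are shown because the results turn on them. Slc2a2 and Slc6a19 differed between epithelium and ILF, Slc3a1 did so in the 19 libraries, and Slc26a3 had 0 UMIs in every FAET library. The sequences are from RefSeq (GRCm38.p6), 250 bases before to 50 after the start of the gene, printed 5′ to 3′ on the strand of the gene, with capitals at every CAAAGT (the core letters of sites of HNF4, a nuclear receptor of enterocytes) and GTTAAT (the first part of sites of HNF1, a homeodomain factor of enterocytes) on either strand.
Slc2a2, chr3:28697653-28697952, plus strand: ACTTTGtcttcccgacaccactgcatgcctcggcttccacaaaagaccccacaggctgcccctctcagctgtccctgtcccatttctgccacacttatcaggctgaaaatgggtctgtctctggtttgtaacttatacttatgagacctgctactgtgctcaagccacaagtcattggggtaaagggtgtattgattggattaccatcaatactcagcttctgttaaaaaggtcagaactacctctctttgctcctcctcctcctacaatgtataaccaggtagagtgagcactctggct
Slc3a1, chr17:85028097-85028396, plus strand: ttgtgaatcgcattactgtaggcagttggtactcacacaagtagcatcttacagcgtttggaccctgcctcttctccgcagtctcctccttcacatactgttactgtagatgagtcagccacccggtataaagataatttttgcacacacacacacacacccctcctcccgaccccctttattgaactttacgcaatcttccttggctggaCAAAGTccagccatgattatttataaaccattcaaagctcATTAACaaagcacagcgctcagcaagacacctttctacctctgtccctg
Slc6a19, chr13:73692587-73692886, minus strand: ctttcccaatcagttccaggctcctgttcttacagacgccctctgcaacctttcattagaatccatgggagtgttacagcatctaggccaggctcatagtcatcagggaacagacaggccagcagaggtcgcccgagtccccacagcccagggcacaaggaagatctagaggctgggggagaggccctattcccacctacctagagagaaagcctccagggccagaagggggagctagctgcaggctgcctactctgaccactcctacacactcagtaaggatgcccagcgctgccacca
Slc26a3, chr12:31437969-31438268, plus strand: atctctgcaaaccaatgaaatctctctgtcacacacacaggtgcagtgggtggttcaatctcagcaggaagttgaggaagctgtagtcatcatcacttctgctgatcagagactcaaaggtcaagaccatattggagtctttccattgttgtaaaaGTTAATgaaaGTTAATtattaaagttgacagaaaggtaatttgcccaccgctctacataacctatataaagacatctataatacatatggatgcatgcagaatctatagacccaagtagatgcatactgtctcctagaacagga

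The Slc26a3 promoter held GTTAAT at 2 places, that of Slc3a1 held both strings once, that of Slc2a2 held CAAAGT at its first bases on the other strand, and that of Slc6a19 held neither. RefSeq promoters were at hand for 108 of the 144 genes (135 promoters). CAAAGT stood in 16 of those 135 (11.9%) and in 14.4% of all 32851 promoters, and GTTAAT in 11 (8.15%) and 7.1%. TTTATG, a CDX site, stood in 9 (6.67%) against 11.9% of all, and AGATAA, bound by the GATA family of factors, in 10 (7.41%) against 11.2%. Among the 20 promoters of genes that were higher in epithelium in the 19 libraries, 6 held CAAAGT (Slc15a1, Slc2a2, Slc3a1, Slc44a4, Slc51a and Slc6a4), 3 held GTTAAT, 1 held TTTATG and 3 held AGATAA. These are letters in a window, with no test.

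The carriers took 25.3 to 128 of 10000 UMIs in a library, and the segments overlapped. Their share was 74.5, 70.6, 61.5, 105 and 30.7 in VB (68.4 ± 26.6, SD, n = 5), 35.0, 94.9, 76.8, 40.6 and 45.5 in FAEB (58.6 ± 26.0) and 76.3, 54.3, 128, 77.6 and 60.3 in FAET (79.4 ± 29.1). In ILFB it was 31.4, 55.8, 38.6, 25.3 and 38.5 (37.9 ± 11.4) and in ILFT 112, 44.4, 101, 38.9 and 34.1 (66.1 ± 37.3). The highest ILFT values stood in libraries with epithelial markers. In the 19 libraries, the share was 35.0 to 128 (median 70.6) in 13 of epithelium and 25.3 to 55.8 (median 36.3) in 6 of ILF, and these ranges still overlapped. The number of the 144 genes with a UMI ran from 24 to 108 a library and was lowest in FAET (median 38), where depth was lowest too.

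**Figure D1:**
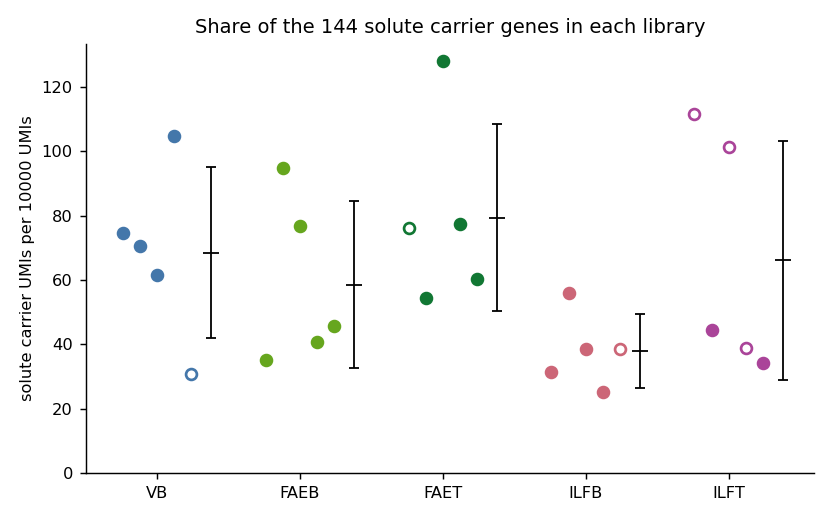
Share of UMIs that fell on the 144 solute carrier genes in each of the 25 libraries (vertical axis, UMIs per 10000), by segment, repeats 1 to 5 from left to right. Open circles are the 6 libraries whose markers went against the label, and bars are the mean ± SD of 5 libraries. The means of VB, FAEB and FAET (68.4, 58.6 and 79.4) lie within 1 SD of each other.

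A few genes carried much of this sum. The 144 genes had 11 to 1177 UMIs over all libraries (median 50.5), 70 had fewer than 50, and the 4 most counted, Slc2a3, Slc5a1, Slc9a3r1 and Slc17a9, held 25.3% of the carrier UMIs. In 39 genes, a single library held more than 33.3% of the UMIs. Only 13 genes were found in 20 libraries or more, among them Slc17a9, the vesicular nucleotide carrier (all 25), Slc5a1 (24), Slc23a1, a vitamin C carrier (23), Slc26a2, a sulfate carrier, and Slc35b1, an organelle nucleotide carrier (22 each). Slc17a9 was the most even of the abundant genes, at 4.37, 2.55, 5.0, 1.36 and 2.35 in VB, 3.82, 1.64, 2.69, 0.579 and 2.09 in FAEB and 1.53, 4.18, 2.15, 1.27 and 2.46 in FAET. It was 1.15, 4.44, 2.74, 0.608 and 1.25 in ILFB and 2.95, 2.33, 0.102, 1.89 and 1.07 in ILFT, and all segments overlapped.

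Between epithelium and ILF, the glucose carrier Slc2a2, the amino acid carrier Slc6a19 and the lactate carrier Slc5a12 were higher in epithelium. So was Slc35g1, of a family of organelle carriers. Of the 5 genes called lower, 3 had most of their UMIs in ILF libraries that went against their label. By edgeR's quasi-likelihood test over all 9956 genes, 9 of the 144 had an adjusted p under 0.05, 4 higher and 5 lower in epithelium. Over all genes, 3.03% were called, 0.472% higher and 2.56% lower. The median log2 fold change was 0.28 for the 144 and -0.48 for all genes, and 56.2% of the 144 and 34.2% of all genes had a value above 0. By class, 6 of 11 sugar carriers, 13 of 27 amino acid and peptide carriers and 7 of 7 carboxylate carriers were above 0, with 1 called in each. With the repeat as a block, 2 were called (Slc2a2 and Slc35g1) beside 0.804% of all genes, and limma-voom called 1 beside 0.281%. DESeq2 gave an adjusted p for 5 of the 144 and 862 of all genes after its own filter and called 0 of them (0.0%), and 0 of the 144 were called when its p-values were adjusted over all 9885 genes that had one, with 17 of the 144 at an unadjusted p under 0.05. Without a repeat the count was 4, 1, 1, 0 and 8 for repeats 1 to 5, so that it rested on few dissections.

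Slc2a2 encodes GLUT2, the basolateral glucose exit carrier. Its level was 1.64, 3.12, 3.71, 3.50 and 0 in VB, 0.327, 2.81, 1.20, 0 and 0.522 in FAEB and 0, 0, 0, 2.83 and 0.205 in FAET. In ILFB it was 0.0958 in repeat 1 and 0 in the others, and in ILFT 1.13, 0, 0, 0.436 and 0. The 0 of VB stood in the library with leukocyte markers, and the ILFT values above 0 in libraries with epithelial markers. The log2 fold change of epithelium over ILF was 3.76 (SE 0.92, edgeR adjusted p 0.0108), and 5.98 (SE 1.35, adjusted p 0.000581) in the 19 libraries. Without replicate 2, 3 or 4 it was no longer called, with an adjusted p of up to 0.349.

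Slc6a19, the main brush border carrier of neutral amino acids, was 0.637, 0, 0, 1.70 and 0 in VB, 0, 3.62, 0.299, 0 and 0.261 in FAEB and 0, 0, 4.72, 0.848 and 0 in FAET. In ILFB it was 0.0468 in repeat 4 alone, and in ILFT 0.434, 0, 0.102, 0 and 0. Of its 82 UMIs, 75 were in epithelium, in 7 of 15 libraries. The groups overlapped at 0, and ILFT repeat 1 (0.434) also lay above FAEB repeats 3 (0.299) and 5 (0.261). The log2 fold change was 3.73 (SE 0.99, edgeR adjusted p 0.0198), and 5.28 in the 19 libraries (adjusted p 0.00391). Slc5a12, a sodium-coupled lactate carrier, was 0.637, 0, 0, 1.02 and 0 in VB, 0, 1.87, 0, 0.145 and 0 in FAEB and 0, 0.929, 0, 1.70 and 0 in FAET. In the ILF it had 5 UMIs, all in ILFB, and its log2 fold change was 3.77 (SE 1.07, edgeR adjusted p 0.0289). With the replicate block over all 25 libraries, neither Slc6a19 nor Slc5a12 was called. With the block in the 19 libraries, Slc6a19 was called and Slc5a12 was not.

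Slc35g1, of a family of organelle carriers, was called under 9 of the 12 alternatives that gave it an adjusted p, and Slc2a2 under 8 of 12. Its level was 0.182, 0, 2.22, 0.113 and 0.156 in VB, 0, 1.40, 0.598, 0.145 and 0 in FAEB and 1.92, 0, 18.0, 1.41 and 2.87 in FAET. In the ILF it had 6 UMIs against 117 in epithelium, with 0.667 in ILFT repeat 2 as the highest value. The log2 fold change was 3.70 (SE 0.95, edgeR adjusted p 0.0159), and FAET repeat 3 alone held 42 of its 123 UMIs. FAET over FAEB was 2.51 (SE 1.33), which was not called (adjusted p 0.369).

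The 5 genes called lower in epithelium were thinly counted. Slc29a3, the lysosomal nucleoside carrier of macrophages, had 4 UMIs in epithelium and 47 in ILF (log2 fold change -3.69, SE 1.01, edgeR adjusted p 0.0239). ILFB repeat 5 and ILFT repeat 3, both with more epithelial than leukocyte markers, held 16 UMIs each. ILFT repeat 3 was mixed, with 123 pan-epithelial and 27.4 pan-leukocyte UMIs per 10000. The latter lay within the 26.3 to 71.3 of the 6 ILF libraries whose markers went with the label. Slc35b4, a nucleotide sugar carrier (-3.30), and Slc30a1, a zinc exporter (-3.11), had 24 of 36 and 15 of 24 UMIs in ILFT repeat 3. Slc41a3, a magnesium carrier (-3.02), and the scaffold gene Slc9a3r2 (-2.90) had 0 UMIs in epithelium against 14 and 13 in ILF, which is at least 4.64-fold and 4.31-fold lower with 3 UMIs over the group as the floor. Among these, Slc41a3 alone was tested and called again in the 19 libraries, though not with the replicate block, and the other 4 were under the limit on low counts there.

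**Figure D2:**
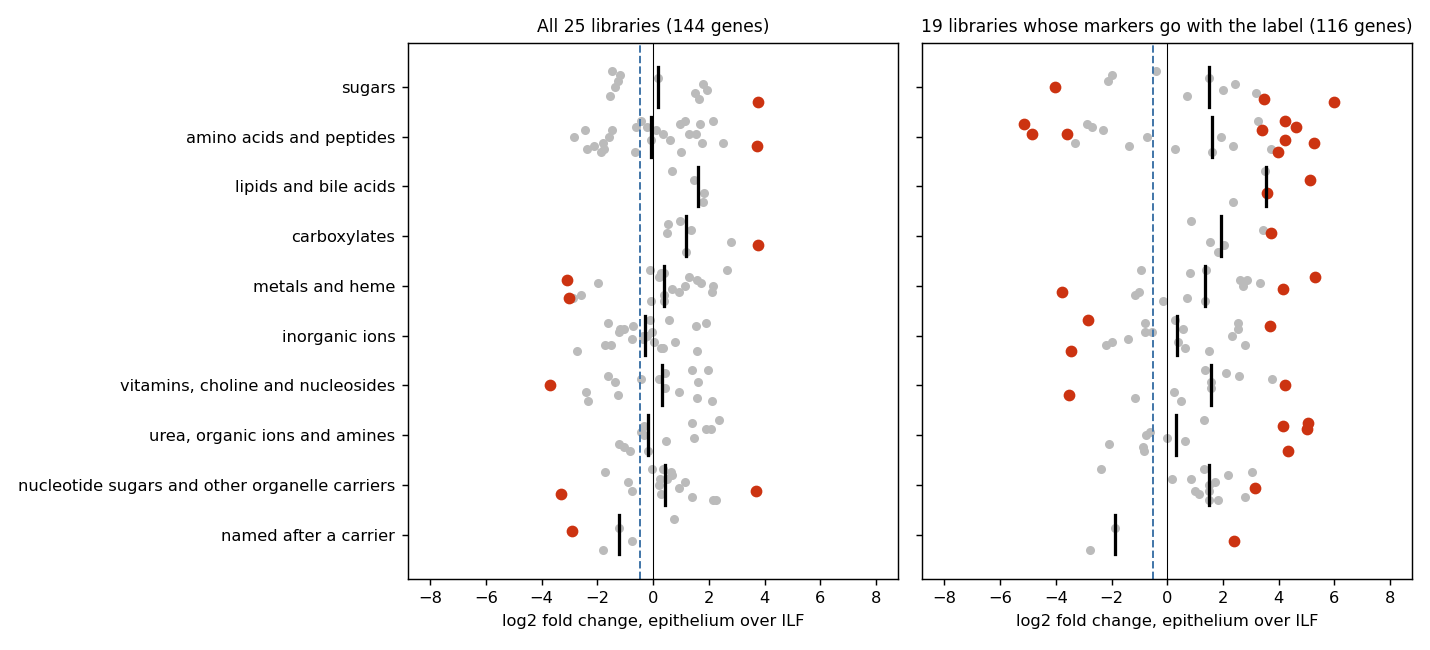
Log2 fold change of epithelium over ILF for each solute carrier gene (points), by substrate class, in all 25 libraries (left) and in the 19 whose markers go with the label (right). Red points had an edgeR adjusted p under 0.05, black bars are class medians, the solid line is 0 and the dashed line is the median of all genes tested (-0.48 and -0.52). The median of the carriers was 0.28 on the left and 1.44 on the right.

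In the 19 libraries, the genes called higher in epithelium included carriers of glucose, amino acids, peptides, fatty acids and zinc, and those called lower included 2 glutamine carriers. There 29 of 116 genes tested were called, 21 higher (18.1%) and 8 lower (6.90%) in epithelium, where 17.3% of all 8738 genes were called, 4.31% higher and 13.0% lower. The median was 1.44 for the carriers and -0.52 for all genes. With the replicate block, 14 were called, beside 9.25% of all genes, and Slc7a9, Slc15a1, Slc5a12, Slc35g1, Slc41a3 and Slc9a3r1 were not among them. Of 21 brush border carriers tested, 20 had a log2 fold change above 0 and 9 were called higher (median 3.17), and of 11 basolateral carriers 10 and 3 (median 3.26). Of 19 carriers tested from the organelle list, which does not hold Slc35g1, 13 were above 0 and 0 were called in edgeR. In that list 3 had an unadjusted p under 0.05, as had 30.2% of all genes. Slc35g1 itself was called higher in epithelium in these libraries.

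The largest epithelial differences in these libraries were of Slc2a2, of Slc39a4, the brush border zinc importer (5.30, SE 1.32), of Slc6a19 and of Slc27a4, a fatty acid carrier (5.11, SE 1.22). Slc39a4 was 1.37, 3.12, 1.48, 2.26 and 0 in VB, 0.218, 1.64, 1.49, 0.145 and 0.522 in FAEB and 0, 7.43, 0, 1.27 and 0 in FAET, against at most 0.242 in ILFB and 1.13, 0, 1.13, 0.290 and 0 in ILFT, where the values above 0 stood in the libraries with epithelial markers. Slc27a4 was 3.73, 3.12, 1.30, 7.46 and 0.235 in VB, 0.546, 4.68, 1.39, 1.45 and 0.783 in FAEB and 0.639, 0, 10.3, 1.41 and 4.92 in FAET. In ILFB it stayed between 0 and 0.775, and in ILFT it was 4.26, 0, 10.7, 0.290 and 0, high in 2 libraries with epithelial markers.

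Slc5a1 encodes SGLT1, which takes up glucose and galactose with sodium. Its level was 10.5, 10.8, 7.78, 17.7 and 0.626 in VB, 2.18, 11.5, 6.47, 3.90 and 3.13 in FAEB and 0, 1.86, 10.3, 9.18 and 11.3 in FAET. In ILFB it was 0.0958, 0.968, 1.45, 0.0936 and 6.59, and in ILFT 7.73, 1.33, 7.07, 1.74 and 0.597. The lowest values of VB and FAET and the highest of ILFB and ILFT stood in libraries labelled against their markers. Among the 19 libraries, Slc5a1 was the 1 gene of the 144 whose epithelial libraries all lay above all ILF libraries, as 0.131% of all genes did, and 0 of the 144 lay wholly below, where 1.02% did. The log2 fold change was 1.63 (SE 0.67, edgeR adjusted p 0.149) in all libraries and 3.48 (SE 0.87, adjusted p 0.00208) in the 19.

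Other amino acid carriers went both ways. Slc7a9 and Slc3a1, which together take up cystine and basic amino acids, were higher in epithelium in the 19 libraries by 4.62 (SE 1.43) and 4.22 (SE 1.36) on the log2 scale, as was Slc15a1, the peptide carrier PEPT1, by 3.96 (SE 1.30). Slc43a2, a carrier of large neutral amino acids, was 2.91, 4.54, 1.67, 3.73 and 0.860 in VB, 1.09, 4.91, 2.29, 0.434 and 0 in FAEB and 0.384, 5.11, 11.2, 4.66 and 1.23 in FAET. It was 0.178 to 1.60 in ILFB and 3.04, 0.334, 2.87, 0 and 0 in ILFT, whose high values stood in libraries with epithelial markers. Its log2 fold change in the 19 libraries was 3.42 (SE 1.01). Slc38a1 and Slc1a5, glutamine carriers of activated lymphocytes, were lower in epithelium there by a log2 fold change of -5.16 (SE 1.07, edgeR adjusted p 0.000148) and -4.87 (SE 1.12, adjusted p 0.000738).
Slc38a1 was 3.83, 0.726, 0.982, 1.26 and 0 in ILFB and 0, 0, 0, 1.45 and 2.15 in ILFT, and in epithelium it was above 0 in VB repeats 4 and 5 (0.113 and 1.09), FAEB repeat 5 (0.522) and FAET repeat 1 (1.15). Over all 25 libraries its log2 fold change was -2.37 (SE 0.83), which was not called (edgeR adjusted p 0.0795).

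**Figure D3:**
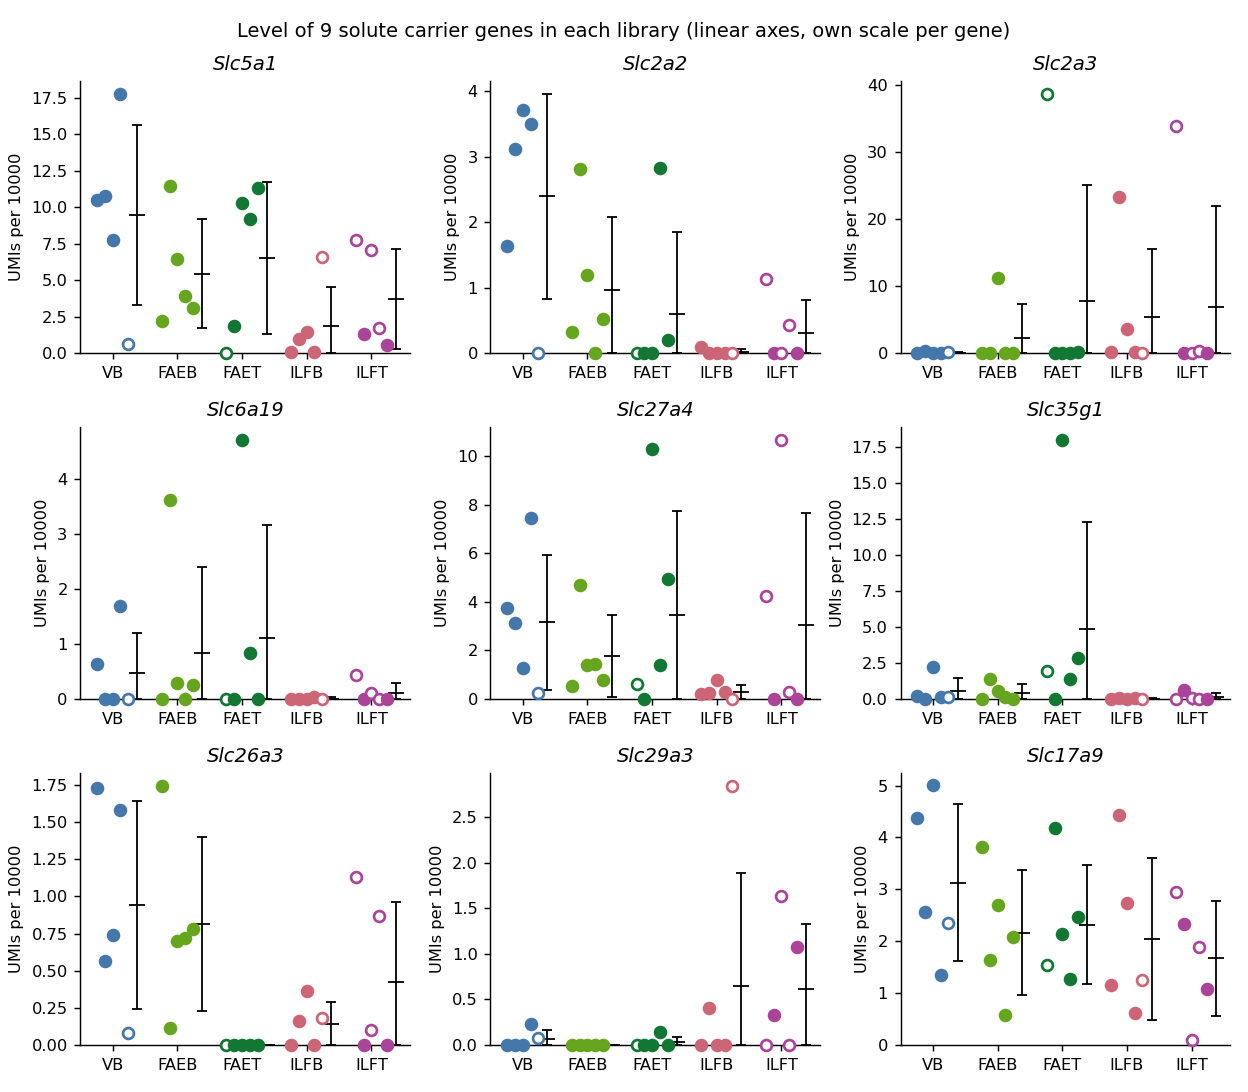
Level of 9 solute carrier genes in each library (UMIs per 10000 UMIs, linear axes with their own scale), by segment, repeats 1 to 5 from left to right, with the mean ± SD of 5 libraries beside them (lower bars end at 0). Open circles are the 6 libraries whose markers went against the label. Slc26a3 lies at 0 in all 5 FAET libraries, and Slc2a3 is high in single libraries of 4 segments.

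The question put to the 3 epithelial segments was whether carriers differ along the follicle-associated epithelium. For FAET against VB, 0 of the 144 were called in edgeR, DESeq2 and limma-voom, beside 0.01% of all genes in edgeR. At an unadjusted p under 0.05, 7 were higher (4.86%) and 19 lower (13.2%), where 2.93% and 9.54% of all genes were. The fitted value was below 0 for 66% of the carriers and 64.6% of all genes, with medians of -0.74 and -0.56. FAET, VB or both had 0 UMIs in 41 genes. With 23 of these at the bound set by 3 UMIs, and without the 18 that had too few UMIs for a fold, the median of the carriers was -0.45. In the 19 libraries the medians were -0.71 and -0.62.

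By class, the median of FAET over VB was -1.74 for vitamin, choline and nucleoside carriers (14 of 16 below 0, and -0.73 with bounds), -1.69 for nucleotide sugar and other organelle carriers (13 of 18), -1.27 for inorganic ion carriers (16 of 22) and -0.72 for amino acid and peptide carriers (16 of 27). It was 0.13 for sugar carriers (5 of 11 below 0) and -0.09 for metal carriers (12 of 21). In the remaining classes, the median was -2.10 for lipid and bile acid carriers and -0.18 for carboxylate carriers. It was -0.32 for urea, organic ion and amine carriers. Their mean summed share was nevertheless higher in FAET than in VB, with overlap. For lipid and bile acid carriers it was 6.74 ± 8.56 and 4.76 ± 3.87, and for carboxylate carriers 3.57 ± 3.21 and 2.27 ± 1.33. For urea, organic ion and amine carriers it was 8.38 ± 3.99 and 7.63 ± 2.73. Nucleotide sugar and other organelle carriers too had 9.34 ± 11.6 in FAET and 7.19 ± 3.33 in VB. Vitamin, choline and nucleoside carriers had 5.03 ± 4.41 and 4.10 ± 1.98 in the same order. Sugar carriers had 16.5 ± 14.9 and 13.2 ± 7.90, and metal carriers 5.88 ± 4.07 and 5.45 ± 2.26. The mean share was lower in FAET for inorganic ion carriers (5.69 ± 1.77 and 7.90 ± 3.12). So it was for amino acid and peptide carriers (11.99 ± 4.86 and 12.93 ± 5.27). All of these overlapped. Brush border carriers had a median of -1.08 (15 of 23 below 0) and basolateral carriers of -1.54 (9 of 12). Their summed shares were 22.0 ± 14.7 and 8.96 ± 5.11 in VB and 16.2 ± 8.97 and 5.86 ± 4.62 in FAET (SD, n = 5), which overlapped.

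Slc26a3, the chloride-bicarbonate exchanger of the brush border, was 1.73, 0.567, 0.741, 1.58 and 0.0782 in VB and 1.75, 0.117, 0.697, 0.723 and 0.783 in FAEB, and had 0 UMIs in every FAET library, with 40 and 35 UMIs in the other segments. All 5 FAET libraries lay below all VB libraries, as they did for 2 of the 144 genes and 0.291% of all genes, and below all FAEB libraries, as for 1 of the 144 and 0.703% of all. With 3 UMIs over FAET as the floor, it was at least 7.79-fold lower there than in VB and 6.69-fold lower than in FAEB, but the edgeR adjusted p was 0.345 and 0.307. An exact permutation Kruskal-Wallis test over VB, FAEB and FAET within mice gave p = 0.00568, and 1 after adjustment over all genes. FAET had the fewest UMIs, which entered the floor.

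Slc35a2, the Golgi carrier of UDP-galactose, was 0.546, 2.55, 1.67, 0.678 and 0.313 in VB, 0.199 in FAEB repeat 3 and 0.128 in FAET repeat 1, and 0 in the other FAEB and FAET libraries. All VB libraries lay above all of FAEB and FAET, the library labelled VB of repeat 5 among them, as 0.0402% of all genes did. It was called across the 5 segments (edgeR adjusted p 0.0165) and under 8 of 13 alternatives, the replicate block and the 19 libraries among them, but not without replicate 1, 2, 3 or 4 nor in DESeq2. It was called neither for FAET over VB (-4.70, SE 1.75, adjusted p 0.345) nor for FAEB over VB (-4.31, SE 1.66, adjusted p 0.455). Its exact permutation p in the epithelium was 0.00238. Of the 144 genes, 4 (2.78%) had such a p under 0.05, where 4.34% of all genes did, and 0 passed adjustment (the other 2 were Slc37a3 at 0.0238 and Slc36a1 at 0.0242).

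The carriers that the study's text names for this axis are Slc2a2, Slc7a7, Slc7a9 and Slc28a2, and each had an exact permutation p over 0.05. The paper's own Kruskal-Wallis tests of these genes in the dissected libraries were not significant either. It reports that Slc2a2, Slc7a7 and Slc7a9 decline toward FAET. Among absorption genes, its transcript imaging covered Atp1b1 and Fabp1, both lower in FAET. It names Slc28a2 as not elevated in FAET. Imaging of that gene found it at the villus tip, which was not dissected, but in no epithelial segment studied here. The paper also reports solute carriers as a group to be lower in FAET than in the other epithelial segments, with a Kruskal-Wallis test. That group test was not repeated here. Slc2a2 was lower in FAET than in VB in 4 of 5 repeats, with a log2 fold change of -1.66 (SE 1.22, edgeR adjusted p 0.577), and the exact permutation p over the epithelium was 0.148. Slc7a7, the basolateral exit carrier of basic amino acids, was 1.00, 1.99, 0.371, 1.36 and 0 in VB, 0.327, 0.351, 0.996, 0 and 0 in FAEB and 0.128, 0, 0, 1.27 and 0 in FAET, lower in FAET than in VB in 4 repeats and equal in 1 (exact permutation p 0.286). Slc7a9 was 0.455, 0.851, 1.11, 0.678 and 0.0782 in VB, 0, 2.22, 0.797, 0 and 0 in FAEB and 0.989 in FAET repeat 4 alone, lower in FAET than in VB in 4 of 5 repeats (exact permutation p 0.250). In FAET, repeat 4 held 20 of the 21 UMIs of Slc2a2, 9 of 10 of Slc7a7 and all 7 of Slc7a9. These counts of repeats include FAET of repeat 1 and VB of repeat 5, both with leukocyte markers. In VB repeat 5, Slc7a9 had 1 UMI. The part of these libraries in the directions was not tested. Slc28a2, a purine nucleoside carrier, had 0 UMIs in FAET, 3 in VB and 9 in FAEB (exact permutation p 0.100). The limit that 0 UMIs allows in FAET, 0.124 per 10000, lay above its pooled level in VB (0.0722) and below that in FAEB (0.213).

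**Figure D4:**
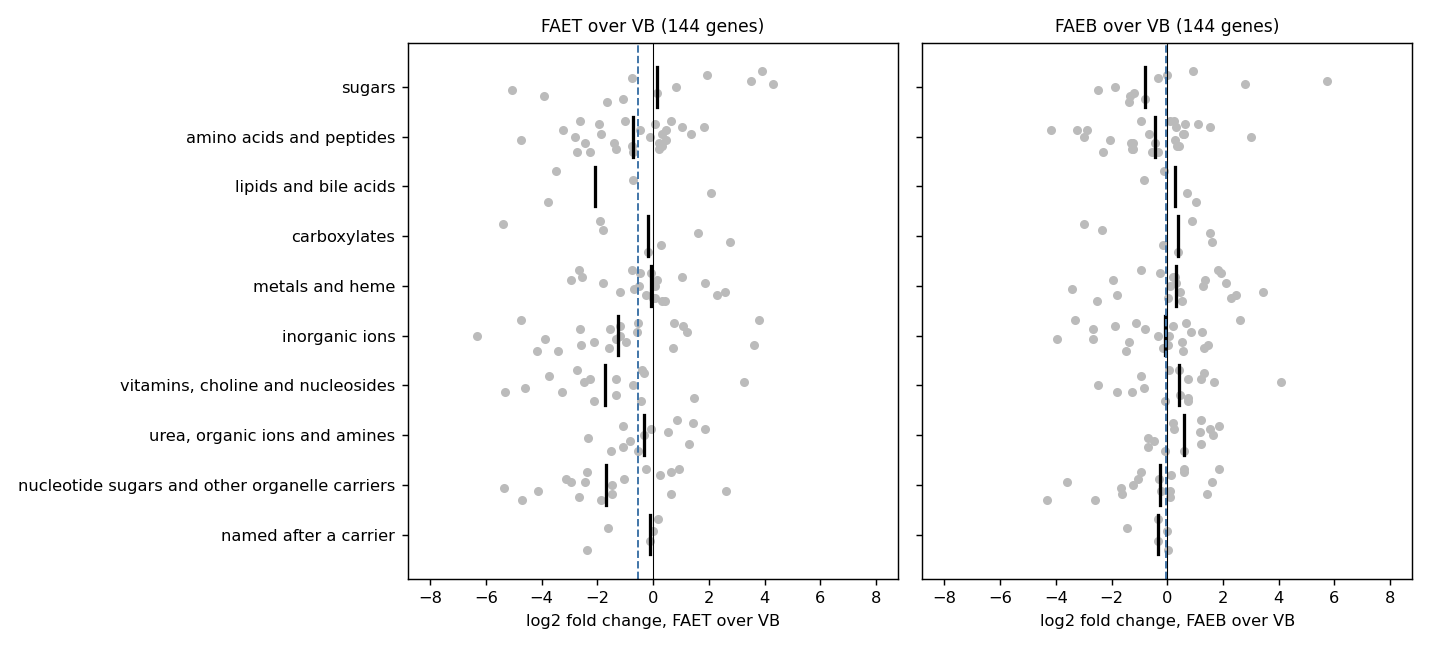
Log2 fold change of FAET over VB (left) and of FAEB over VB (right) for each of the 144 genes (points), by substrate class, over all 25 libraries. Black bars are class medians, the solid line is 0 and the dashed line is the median of all genes (-0.56 and -0.03), and no point is red because no gene had an edgeR adjusted p under 0.05.

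Among the carriers with the highest fitted values of FAET over VB, Slc2a3 and Slc2a6 had most of their FAET UMIs in a single library. Slc2a3 encodes GLUT3, a high-affinity glucose carrier of leukocytes. It had 1177 UMIs, found in 12 libraries only, of which ILFT repeat 1 held 390, FAET repeat 1 held 302, ILFB repeat 2 held 288, FAEB repeat 3 held 113 and ILFB repeat 3 held 70. In VB it had 4. The fitted log2 fold change of FAET over VB was 3.51 (SE 1.40, edgeR adjusted p 0.345) with all libraries, and without replicate 1 FAET had 1 UMI against 4 in VB. FAEB over VB was 5.74 (SE 1.33, adjusted p 0.0508), and without replicate 3 FAEB had 0 UMIs against 4. It passed the threshold with the study's normalization and without replicate 5. Without Slc2a3, the summed share was 68.3 in VB, 56.3 in FAEB and 71.6 in FAET.
Slc2a6, a lysosomal hexose carrier of myeloid cells, had 20 UMIs in FAET, of which 14 were in repeat 1, which had leukocyte markers, and 1 in VB. Slc15a3, a lysosomal peptide carrier of leukocytes, had all 23 FAET UMIs in repeat 1 and all 13 VB UMIs in repeat 5, both labelled against their markers. Slc13a1, a sulfate carrier, had 8 UMIs in FAET and 1 in VB. None of these was called.

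Against FAEB, FAET gave 0 calls among the 144 in edgeR, DESeq2 and limma-voom, with 0.0% of all genes called in edgeR. At an unadjusted p under 0.05, 3 genes were higher and 13 lower (9.03%), where 4.69% and 9.61% of all genes were. Medians were -0.41 and -0.48. Slc51b, a subunit of the basolateral bile acid exporter, had 3 UMIs in FAET and 43 in FAEB, found in all 5 FAEB libraries (log2 fold change -3.35, SE 1.44, edgeR adjusted p 0.310), whereas its partner Slc51a had 55 and 39 (1.35, SE 1.19). Slc27a2, a fatty acid carrier, had 0 UMIs in FAET and 17 in FAEB.

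Between FAEB and VB, the median was 0.03 for the carriers and -0.03 for all genes, and 0 of the 144 were called in edgeR, DESeq2 and limma-voom, beside 0.0201% of all genes in edgeR. At an unadjusted p under 0.05, 3 were higher and 7 lower (4.86%), where 3.35% and 5.6% of all genes were. Besides Slc2a3, Slc35a2 and Slc15a3, the smallest p-values belonged to Slc39a3, a zinc carrier (40 UMIs in FAEB, 28 of them in repeat 2, and 3 in VB), to Slc13a1 (11 and 1) and to Slc38a9, a lysosomal amino acid sensor (0 and 6).

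Across the follicle, ILFB against ILFT gave 0 calls among the 144 in edgeR, DESeq2 and limma-voom, where 0.0904% of all genes were called in edgeR. At an unadjusted p under 0.05, 11 were higher in ILFB (7.64%) and 10 lower (6.94%), where 11.5% and 2.75% of all genes were. The median was -0.38 for the carriers and 0.66 for all genes. The brush border carriers were below 0 in 19 of 23 genes (median -2.05) and the basolateral ones in 11 of 12 (median -1.75), beside epithelial markers of 66.1 to 123 UMIs per 10000 in 3 ILFT libraries. In the 19 libraries, of which ILFT held 2, 15 of 21 and 7 of 11 had too few UMIs for a fold.

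Slc26a6, a brush border anion exchanger, had 5 UMIs in ILFB and 65 in ILFT, of which 42, 15 and 7 were in repeats 1, 3 and 4, and Slc6a20a, an imino acid carrier, had 1 and 36, in repeats 1 (15) and 3 (21). Slc44a4, a carrier of thiamine pyrophosphate, had 0 UMIs in ILFB and 8 in ILFT. Without the 6 libraries against their label they had 5 and 1, 1 and 0, and 0 and 0 UMIs. On the other side, Slc16a1, the lactate carrier MCT1, had 4, 3, 3, 4 and 7 UMIs in ILFB and 0 in every ILFT library, so that these segments did not overlap (1 of the 144 genes and 1.29% of all genes in this direction). With 3 UMIs over ILFT as the floor it was at least 4.0-fold higher in ILFB (edgeR adjusted p 0.208). The 7 UMIs stood in ILFB repeat 5, which had epithelial markers, as had ILFT repeats 1, 3 and 4. Without the 6 libraries against their label, Slc16a1 had 14 UMIs in ILFB and 0 in ILFT, too few for a fold. Slc15a4, a lysosomal histidine carrier of B cells and dendritic cells, had 4, 3, 11, 12 and 0 UMIs in ILFB and 1 in ILFT. Slc38a2, a neutral amino acid carrier, had 85 and 8.

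Over all 5 segments in one test, 4 of the 144 were called by edgeR, where 1.79% of all genes were: Slc35g1 (adjusted p 0.0131), Slc35a2 (0.0165), Slc2a2 (0.0239) and Slc2a3 (0.0366). With the replicate block 2 were called (Slc35a2 and Slc35g1) beside 0.482% of all genes, and in the 19 libraries 28 beside 18.2%, with all 4 among the 28. Counted by the segment of the highest mean, 33 of the 144 peaked in VB (22.9%), 26 in FAEB (18.1%), 37 in FAET (25.7%), 21 in ILFB (14.6%) and 27 in ILFT (18.8%), where 14.9%, 15%, 14.7%, 33.3% and 22.1% of all genes did. In the 19 libraries, 28 (19.4%) peaked in FAET and 33 (22.9%) in ILFB, with 35 (24.3%) in VB, 23 (16%) in FAEB and 25 (17.4%) in ILFT. All genes there had 12.9% in FAET, 36.7% in ILFB, 14.7% in VB, 14.7% in FAEB and 20.9% in ILFT. Among the epithelial segments of all libraries alone, the peaks of the carriers were spread as 35.9% in VB, 31.0% in FAEB and 33.1% in FAET, where all genes had 36.3%, 35.3% and 28.5%.

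Abundant members of the remaining classes overlapped between segments over all libraries. The UMI sums below come from segments of unequal depth and do not rank the segments by level. The median library held 88495 UMIs in VB, 85530 in FAEB, 48759 in FAET, 123960 in ILFB and 83798 in ILFT. Slc6a8, the creatine carrier, had 48 UMIs in VB, 63 in FAEB, 35 in FAET, 7 in ILFB and 39 in ILFT. It was called higher in epithelium in the 19 libraries (log2 fold change 4.33, SE 1.12, edgeR adjusted p 0.00294), with the replicate block too. Slc6a6, the taurine carrier, had 34, 31, 7, 53 and 72 in the same order. Slc31a1, the copper importer, had 16, 38, 14, 23 and 5 UMIs in that order, and Slc44a1, a choline carrier, 20, 52, 50, 20 and 26. Slc16a3, the lactate exporter MCT4, had 5, 18 and 31 in epithelium and 6 and 1 in the ILF (log2 fold change 2.81, SE 1.03, edgeR adjusted p 0.0960). The scaffold gene Slc9a3r1, which ties carriers to the microvillus, was 3.73, 1.70, 1.11, 6.21 and 0.391 in VB and 0.767, 0.929, 23.2, 3.39 and 1.85 in FAET. It was called higher in epithelium in the 19 libraries (2.39, SE 0.87, edgeR adjusted p 0.0391), though not with the replicate block.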

How the data were processed

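The authors cut 5 segments by LCM, made UMI libraries and aligned the reads with zUMIs and STAR to GRCm38 after base calling with bcl2fastq, for which the submitters' processing notes give version 2.15.0.4. The deposited values are their raw UMI counts for 24089 genes in 25 libraries, not normalized. The chemistry is SMART-seq in the labels and mcSCRB-seq in the paper. The latter counts UMIs, and the table was taken as UMI counts. Totals of 21529 to 213736 UMIs set the precision, and limits for 0 counts (3 UMIs over a group) cover counting error only.

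The 9956 genes that reached 3 UMIs in 3 or more libraries were tested with edgeR 4.0.16 in R 4.3.3 (glmQLFit and glmQLFTest, TMM factors, terms for mouse and segment, Benjamini-Hochberg over all genes), checked on simulated counts. TMM factors hold if most genes are alike between libraries, and medians of the carriers are read against those of all genes. The Kruskal-Wallis statistic over VB, FAEB and FAET was permuted exactly within mice, 2-sided. It was taken on the fraction of UMIs without mitochondrial genes and genes that reached 5% of any library. On the fraction of all UMIs, 5 of the 144 had a p under 0.05 by this exact permutation. Python 3.11.15 with numpy 2.4.6, pandas 2.3.3, scipy 1.17.1 and matplotlib 3.10.9 served for the rest. Alternatives used RLE size factors, the study's normalization, no filter, DESeq2 1.42.0, limma-voom (limma 3.58.1), a replicate block, and each replicate left out. The study's normalization was taken without its limit to protein-coding genes. The 19-library set was added after seeing the data.

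The members and the lists (substrate classes, brush border, basolateral, organelle and leukocyte carriers) were chosen with earlier results of these data known. Of the leukocyte list, 3 of 7 genes passed the limit on low counts (Slc2a3, Slc15a3 and Slc29a3). Named genes were those the paper names, every member called, the 4 members with the most UMIs in each class, and in each comparison of 2 segments the 3 members per direction with the smallest p among those with at least 30 UMIs; genes named besides these, for the 19 libraries, single counts or promoters, were chosen after their values were seen. Repeats share an animal and sections across segments, so their numbers pair libraries. Deviations from the segment means correlated by 0.0244 on average between libraries of the same repeat (50 pairs) and by -0.0109 between other repeats of the same mouse (80 pairs).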

Additional observations from a re-analysis of the deposited data

Results flagged for a closer look

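The share of the carriers and the levels of 18 genes were examined in each segment, 95 groups of 5 libraries, for a highest or lowest library whose gap to the next exceeded 0.71 of the range of the group. Among groups of normally distributed values, about 1 in 20 would pass that limit by chance. These counts are sparse, and 1 UMI beside zeros passes it, as for Slc2a2 in ILFB repeat 1. That rate therefore sets no expectation for the 33 groups found here, many of which were otherwise at or near 0. Values are UMIs per 10000.

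In sugar carriers, the libraries that stood apart were FAEB repeat 3 (11.2), FAET repeat 1 (38.6), ILFB repeat 2 (23.2) and ILFT repeat 1 (33.9) for Slc2a3, FAET repeat 4 (2.83) and ILFB repeat 1 (0.0958) for Slc2a2, and ILFB repeat 5 (6.59) for Slc5a1. For amino acid carriers, they were FAEB repeat 2 (3.62), FAET repeat 3 (4.72), ILFB repeat 4 (0.0468) and ILFT repeat 1 (0.434) for Slc6a19, FAET repeat 4 (0.989), ILFB repeat 5 (2.14) and ILFT repeat 3 (1.54) for Slc7a9, and FAET repeat 4 (1.27) for Slc7a7. Slc38a1 stood apart in VB repeat 5 (1.09), FAEB repeat 5 (0.522) and FAET repeat 1 (1.15). Single libraries also stood out for Slc27a4 in FAEB repeat 2 (4.68), for Slc5a12 in FAEB repeat 2 (1.87), for Slc28a2 in ILFT repeat 3 (0.820), and for Slc39a4 in FAET repeat 2 (7.43) and ILFB repeat 2 (0.242). Slc35g1, of a family of organelle carriers, did so in VB repeat 3 (2.22), FAET repeat 3 (18.0) and ILFT repeat 2 (0.667). The Golgi carrier Slc35a2 did so in FAEB repeat 3 (0.199), FAET repeat 1 (0.128) and ILFB repeat 3 (0.207). For the lysosomal carrier Slc29a3 it was FAET repeat 4 (0.141) and ILFB repeat 5 (2.85). The scaffold gene Slc9a3r1 stood apart in FAET repeat 3 (23.2) and ILFB repeat 5 (3.56). The libraries labelled VB of repeat 5, FAET of repeat 1, ILFB of repeat 5 and ILFT of repeats 1, 3 and 4, whose markers went against the label, account for 12 of these 33, and their part in these values was not tested.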

How the results depend on the processing

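For epithelium against ILF, the 9 genes called became 13 with RLE size factors (5 higher and 8 lower in epithelium), 9 with the study's normalization (6 higher, 3 lower), 4 without the filter, 0 in DESeq2 (adjusted p given for 5 genes), 1 in limma-voom, 0 to 8 without a replicate and 29 in the 19 libraries. Over all 5 segments, the 4 called became 2 without the filter, 0 in DESeq2, 1 in limma-voom, 0 to 9 without a replicate and 28 in the 19 libraries. With the replicate block, the pairing by repeat left 2 for epithelium against ILF and 2 over all segments, and 14 and 12 in the 19 libraries, and it changed no call in the comparisons of 2 segments. FAEB against VB gave 1 call (Slc2a3) with the study's normalization and 0 to 1 without a replicate. The Kruskal-Wallis count of 4 was 3 to 6 under its alternatives. The study's denominator was taken without its limit to protein-coding genes. It left out mitochondrial genes and genes that reached 5% of the UMIs of any library. It raised the shares to 115 in VB, 97.3 in FAEB, 133 in FAET and 52.8 in ILFB. Normalization by this denominator moved the median of all genes from -0.56 to -0.28 for FAET over VB and from -0.48 to -0.24 for FAET over FAEB. The median moved from 0.66 to 0.28 for ILFB over ILFT and from -0.48 to -0.33 for epithelium over ILF.

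Of 415 values of single genes under alternatives, 360 kept direction and side of the threshold and 4 turned, and 21 more had too few UMIs for a fold. For FAET over VB, Slc2a3 ran from -0.92 (without replicate 1) to 6.23 (without replicate 5). For FAEB over VB, Slc2a3 ran from -5.70 (without replicate 3) to 8.45 (without replicate 5). For ILFB over ILFT in those libraries, Slc26a6 became 0.65 (0.78 with the block), on 5 UMIs against 1. The values of Slc2a3 that turned rested on 1 and 0 UMIs against 4. The causes were not tested. The wide spread between dissections (common dispersion 1.78) and totals as low as 21529 UMIs in FAET limit what could be called for genes with a median of 50.5 UMIs.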
